A study of Mus musculus with 6 samples.

Results

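The cytosolic ribosomal protein genes encode the protein part of the ribosomes that translate nuclear messenger RNA. They were chosen by name: a probe set had to carry 1 gene symbol in the platform annotation, and that symbol had to be a plain Rpl or Rps name, Rplp0, Rplp1, Rplp2 or Rpsa. This gave 46 genes out of 18193 genes on the arrays, 24 of the large and 22 of the small subunit, with 100 probe sets between them. Each gene is represented by its brightest probe set, judged by the mean of all arrays. A further 110 probe sets carried several symbols, at least 1 of them a ribosomal protein gene, and these were not given a gene name here. Of the 46 genes, 43 were tested, being brighter than the array median on 2 or more arrays, 22 of the large and 21 of the small subunit. Rpl3l, Rpl39l and Rps16 did not pass that filter and are given by their values only. Rpl3l, a paralogue of heart and skeletal muscle, had 6.75 to 6.96, Rpl39l, a paralogue of testis, 6.85 to 7.00, and Rps16 6.58 to 6.82. Rps16 is no such paralogue and had 1 single-symbol probe set, so its low value need not mean a low message.

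The arrays held RNA from the hippocampus of male, singly housed DBA/2 mice. Venlafaxine, an antidepressant of the serotonin and noradrenaline reuptake inhibitor class, was given in the drinking water for 30 days at 0 (control), 30 (low dose) or 100 (high dose) mg per kg body weight per day, with 10 animals in each dose group. Each group contributed 1 pool of right and 1 pool of left hippocampi, and 1 Affymetrix mouse genome array was run per pool, 6 in all. Right hippocampi made up replicate 1 of the control and of the low dose and replicate 2 of the high dose, and left hippocampi the others. Hybridization took place on 2 dates, and only replicate 2 of the control and replicate 2 of the high dose belong to the later one. The RNA integrity number (RIN, a score of how intact the RNA is) was highest at the low dose, 9.1 and 8.9. Controls had 8.7 and 7.9, and high dose pools 8.5 and 8.2. Whether the right and left pools of a group hold different animals is not stated in the labels, and p-values cover the spread between pools alone, which may be technical. In pooled tissue, fewer cells of a type and less RNA per cell cannot be told apart. All 5 neuron markers and all 4 markers of granule and pyramidal cells (Prox1, C1ql2, Wfs1 and Fibcd1) passed the filter, and so did all 6 of choroid plexus, a tissue next to the hippocampus.

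Ribosomal proteins are needed in equal numbers, 1 of nearly every kind per ribosome, and their genes are among the most actively transcribed of any cell. Many of their messages begin with a C followed by a run of pyrimidines (C or T in the DNA), the terminal oligopyrimidine or TOP motif, through which the kinase mTOR and the RNA-binding protein Larp1 control their translation together. In neurons ribosomal protein messages are also found in axons and dendrites. None of this was measured here: the arrays report messenger RNA levels.

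Promoter sequences from RefSeq (build GRCm38.p6) were found for 40 of the 46 genes. The windows below show what the start of these genes looks like, from 45 bases before to 15 bases from the annotated start on. Capitals mark the pyrimidine run that opens with C and holds at least 4 further C or T, where one begins within 5 bases of the annotated start.
Rpl35: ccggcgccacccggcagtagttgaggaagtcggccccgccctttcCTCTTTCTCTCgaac
Rpl38: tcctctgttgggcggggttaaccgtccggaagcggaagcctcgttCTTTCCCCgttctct
Rps6: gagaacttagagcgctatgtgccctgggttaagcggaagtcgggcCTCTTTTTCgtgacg
Rps10: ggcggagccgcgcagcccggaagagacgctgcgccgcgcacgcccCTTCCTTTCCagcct
Rps18: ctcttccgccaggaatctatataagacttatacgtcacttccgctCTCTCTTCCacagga
Rpl27a: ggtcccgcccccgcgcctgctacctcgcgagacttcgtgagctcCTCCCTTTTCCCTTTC
Rpl37: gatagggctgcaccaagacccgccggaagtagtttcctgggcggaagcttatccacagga
Rplp0: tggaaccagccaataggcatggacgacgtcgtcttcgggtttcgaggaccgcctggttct
The first 5 have the run at the annotated start itself (chr2:39005117-39005176 on the minus strand for Rpl35, chr11:114668535-114668594 on the plus strand for Rpl38, and chr4:86857353-86857412, chr17:27635230-27635289 and chr17:33955651-33955710 on the minus strand for Rps6, Rps10 and Rps18). Rpl27a (chr7:109519150-109519209, plus strand), Rpl37 (chr15:5116568-5116627, plus strand) and Rplp0 (chr5:115559422-115559481, plus strand) are shown because they differed between hybridization dates by more than most other members. The run of Rpl27a is 17 bases long and passes the end of the window, and Rpl37 and Rplp0 have no such run near the start that the annotation gives.

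A run of this kind was present in 19 of the 40 genes (47.5%), 10 of 22 of the large and 9 of 18 of the small subunit, against 24.1% of the 9509 tested genes with a promoter sequence and 18.3% of all 32851 promoters. The core of the binding motif of ETS transcription factors, CCGGAAGT on either strand anywhere in the 300 bases, was found in 10 of the 40 genes (25%) and in 8.63% of the tested genes. It lies in the Rpl37 window shown above. The core of the YY1 motif, AAGATGGC, was found in 3 genes (7.50%, against 5.27%), and the letters TATAAA in 5 (12.5%, against 8.75%). On its opposite strand the ETS core holds the letters CTTCC, so it can overlap a pyrimidine run. The annotated start of a gene can be some bases away from the start used in the hippocampus.

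Most members were high on 1 array and low on another. On low dose replicate 2, the left pool of the low dose, 41 of the 46 genes lay above their own mean over the 6 arrays, and for 35 of them no other array was higher. The median deviation from the gene's own mean was 0.13 log2 units on that array, against -0.07 on low dose replicate 1, where 6 of the 46 genes lay above their own mean, -0.04 and -0.01 on control replicates 1 and 2, and -0.03 and 0.04 on high dose replicates 1 and 2. Genes outside the set moved likewise on this array: the median was 0.08 over all 11743 tested genes and 0.13 over the 855 other genes with a mean level above 12. For 75.9% of those 855 genes, and for 45.3% of all tested genes, low dose replicate 2 was the highest array. The 99 probe sets with several symbols that passed the filter had a median of 0.13 there as well.

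**Figure D1:**
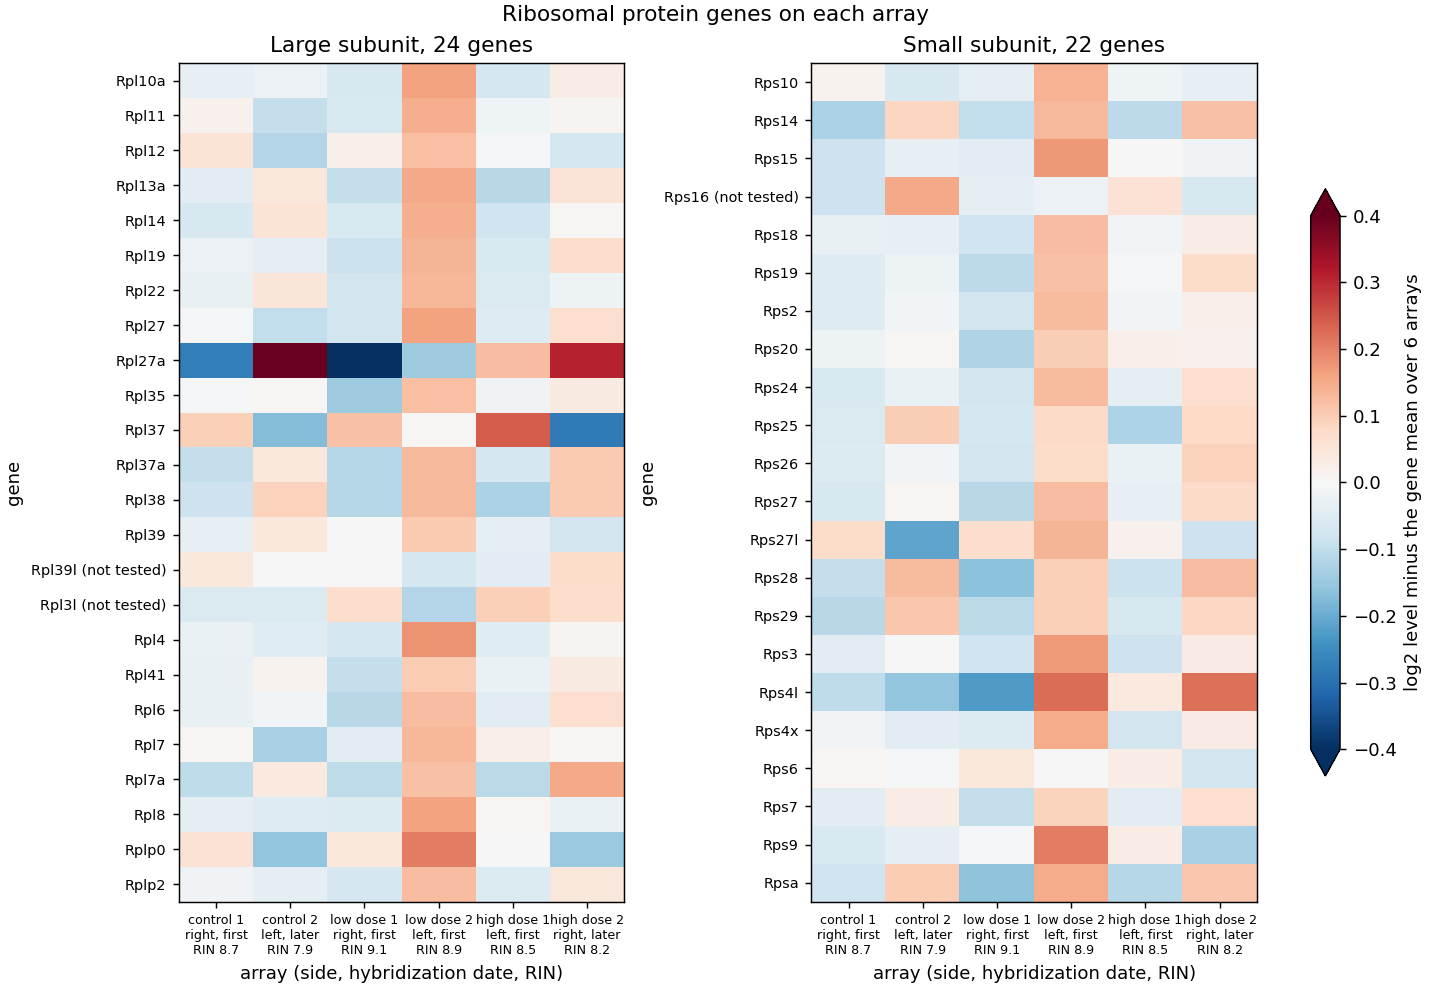
Log2 level of each of the 46 ribosomal protein genes minus the gene's mean over the 6 arrays, as a colour from -0.4 (blue) to 0.4 (red), for large subunit genes on the left and small subunit genes on the right; columns are arrays, with side, hybridization date and RIN. The column of low dose replicate 2 is red for nearly every gene, while the rows of Rpl27a, Rpl37 and Rps27l change with the date.

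Large and small subunit medians lay within 0.0327 of each other on every array. The median deviation was 0.13 for both subunits on low dose replicate 2, and -0.07 and -0.08 for large and small subunit on low dose replicate 1. On control replicate 1 the medians were -0.03 and -0.05, and on control replicate 2 they were -0.02 and -0.01. High dose replicate 1 had -0.04 and -0.03, and high dose replicate 2 had 0.03 and 0.07. The large minus small difference therefore ran from -0.03 on high dose replicate 2 to 0.02 on control replicate 1, less than the range over which the set as a whole moved.

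**Figure D2:**
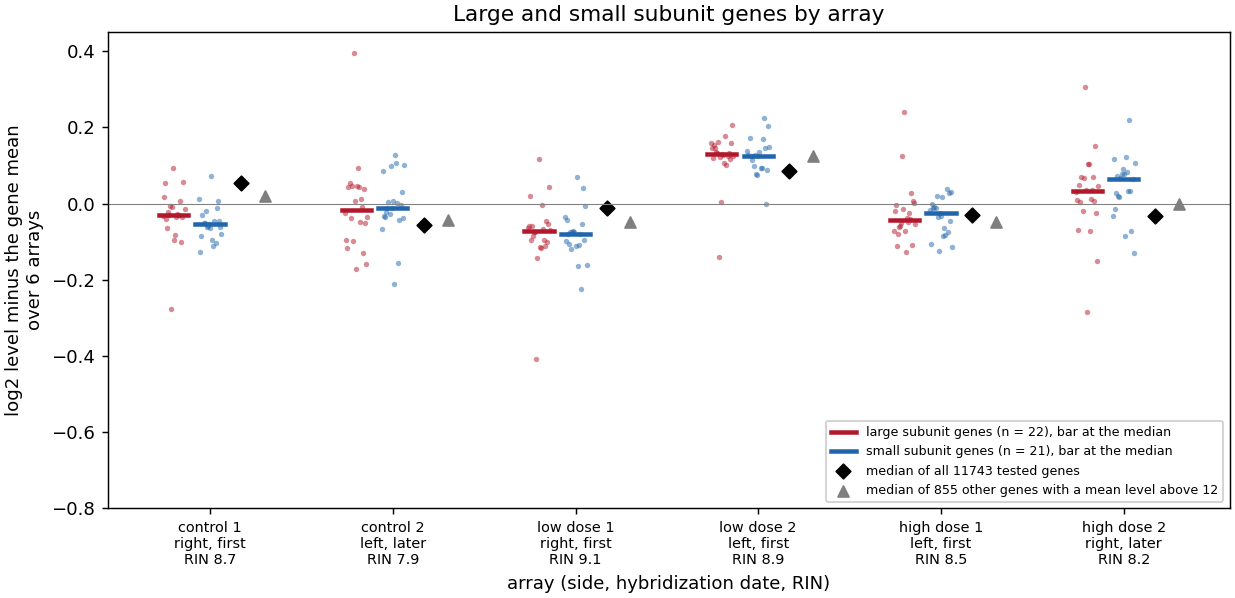
Deviation of each tested ribosomal protein gene from its mean over the 6 arrays (log2 units), by array; red points are the 22 large and blue points the 21 small subunit genes, bars their medians, black diamonds the median of all 11743 tested genes and grey triangles that of 855 other genes with a mean level above 12. The bars of both subunits lie at 0.13 on low dose replicate 2 and close to each other on every array.

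Single genes differed in how steady they were. The standard deviation over the 6 arrays had a median of 0.0871 over the 46 genes, against 0.0925 over all tested genes and 0.0946 over the other genes with a mean level above 12. It was smallest for Rps6 (0.0396), the small subunit protein that is phosphorylated by kinases downstream of mTOR, whose levels were 8.46 and 8.45 in the controls, 8.50 and 8.45 at the low dose and 8.48 and 8.38 at the high dose. Among tested genes Rpl39 (0.0648), Rpl41 (0.0661) and Rps26 (0.0681) followed. The means of Rps6 (8.45) and Rpl39 (7.97) lay near the array medians of 7.79 to 7.80, where the median member had 13.14. At such levels a small spread need not mean a steady message. Rpl39l had 0.0526, but it did not pass the filter on low values, and a small spread there says nothing of how steady its message was. At the other end were Rpl27a (0.326), Rpl37 (0.195), Rps4l (0.193), Rplp0 (0.138) and Rpsa (0.133). Rpl27a and Rpl37 are large subunit proteins, Rps4l is a relative of the small subunit gene Rps4x, Rplp0 anchors the stalk to which elongation factors bind, and Rpsa is a small subunit protein that was first described as a laminin receptor.

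At the high dose no ribosomal protein gene passed the threshold against no drug. Of the 43 tested genes 0 had an adjusted p under 0.05 (limma, two-sided, Benjamini-Hochberg over 11743 genes), where 0.00852% of all tested genes did. An unadjusted p under 0.05 was found for 1 of the 43 and for 324 of the 11743. The log2 differences ran from -0.06 to 0.26, with standard errors between 0.10 and 0.15, and 41 of the 43 were smaller than 0.1 either way. The median was 0.02, with 31 genes above and 12 below 0. Over all tested genes it was -0.03, and over the other genes above a level of 12 it was -0.01. By subunit it was 0.02 for the large and 0.03 for the small.

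Rps4l had the highest difference of the set. Its level was 9.19 and 9.13 on the control arrays, 9.06 and 9.51 on the low dose arrays, and 9.33 and 9.51 on the high dose arrays. Both high dose arrays lay above both controls, while the low dose arrays lay on either side of them. The log2 difference between high dose and control was 0.26 (SE 0.12, limma adjusted p = 1.00). Rps4x, the X-linked gene of the same family, had 13.53 and 13.50 in the controls, 13.49 and 13.69 at the low dose and 13.47 and 13.58 at the high dose.

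For 6 of the 43 genes both high dose arrays lay above both controls, where 8.03% of all tested genes did, and these were Rpl8, Rps15, Rps18, Rps19, Rps20 and Rps4l. Only Rpl39, a protein of the peptide exit tunnel, lay wholly below the controls, where 18.7% of all tested genes did. Rps19, the gene most often mutated in Diamond-Blackfan anaemia, had 13.03 and 13.06 in the controls and 13.07 and 13.16 at the high dose, with a difference of 0.07 (SE 0.11). Rpl39 had 7.94 and 8.01 in the controls and 7.93 and 7.90 at the high dose, with a difference of -0.06 (SE 0.10). These differences are smaller than their standard errors.

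Other genes with the highest values in this comparison were Rpl27a (0.16), Rpl7 (0.08), Rpl27 (0.06), Rpl7a (0.05) and Rpl37a (0.04) of the large subunit, and Rps26 (0.07), Rps24 (0.06) and Rps15 (0.05) of the small. The lowest were Rpl22 (-0.05), Rpl14 (-0.03), Rpl13a (-0.03) and Rplp0 (-0.02) of the large, and Rps25 (-0.04), Rps6 (-0.02) and Rpsa (-0.01) of the small subunit. None of these passed the threshold. Within the first date the median over the 46 genes was -0.002, with 23 genes higher and 23 lower on the high dose array. Within the later date it was 0.03, with 35 higher and 11 lower. Arrays of the same side gave -0.02 on the left and 0.07 on the right. Over all tested genes the medians in the same order were -0.08, 0.02, 0.03 and -0.09.

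Without control replicate 2 the log2 difference of Rpl27a between high dose and control was 0.49. Where leaving out an array left 1 in a group, as here, that lone array was assumed to vary like the other groups. Without high dose replicate 2 the median of the tested members was -0.008.

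**Figure D3:**
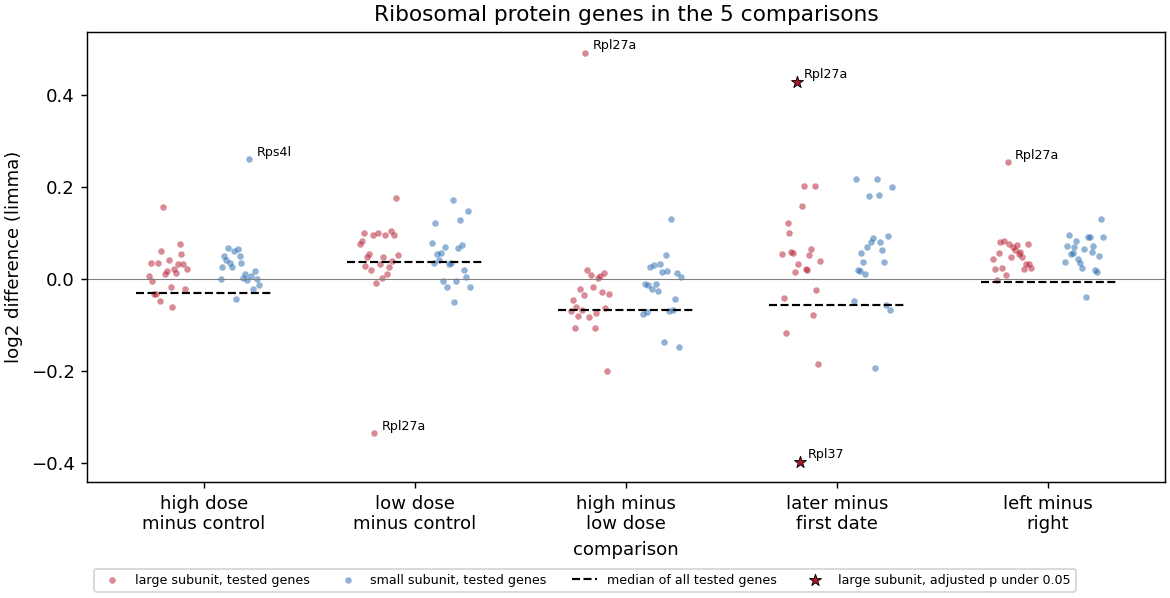
Log2 difference of each tested ribosomal protein gene in the 5 comparisons (limma), red for 22 large and blue for 21 small subunit genes; the dashed line is the median of all 11743 tested genes and stars are genes with an adjusted p under 0.05. The stars are Rpl27a and Rpl37 in the comparison of dates, and the bulk of the set lies above the dashed line there.

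At the low dose no member passed the threshold against the controls either. Of 43 genes 0 had an adjusted p under 0.05, where 0.0426% of all tested genes did, 0.00852% higher and 0.0341% lower (limma). An unadjusted p under 0.05 was found for 1 of the 43 and for 390 of all 11743 tested genes. The median difference was 0.05, close to the 0.04 of all tested genes and the 0.05 of the other genes above a level of 12, with 36 genes above and 7 below 0. This median rests on low dose replicate 2: without that array it was -0.05, and without low dose replicate 1 it was 0.15. Against control replicate 1, which shares date and side with low dose replicate 1, the latter had a median of -0.04, with 35 of the 46 genes lower. Low dose replicate 2 had a median of 0.16 against the same control, with 42 genes higher. The low dose arrays thus lay on opposite sides of the control array of their date.

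The values at the low dose ran from -0.33 to 0.18. Rplp0 had 12.01 and 11.80 in the controls and 12.00 and 12.16 at the low dose, a log2 difference of 0.18 (SE 0.11, limma adjusted p = 1.00). The groups overlapped, and the right pools of the first date, at 12.01 and 12.00, were close. Rps27l, a small subunit paralogue that p53 induces, had 0.17 (SE 0.11), and Rps9, which lies near the entry of the messenger RNA channel, 0.15 (SE 0.11). Rps9 was the 1 gene with both low dose arrays above both controls, where 13.4% of all tested genes were. Its levels were 13.12 and 13.14 in the controls, 13.17 and 13.38 at the low dose and 13.21 and 13.05 at the high dose. No member lay wholly below the controls, where 7.78% of all tested genes did.

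Of the other members Rps4l (0.13), Rps15 (0.12), Rpl7 (0.10), Rpl12 (0.10), Rpl37 (0.10) and Rpl8 (0.10) had the highest values at the low dose. Rps28 (-0.05), Rpsa (-0.02), Rps25 (-0.02), Rps29 (-0.005), Rps20 (-0.003) and Rpl35 (-0.009) lay just below 0. Rpl27a had -0.33 (SE 0.15, limma adjusted p = 1.00). Without control replicate 1 its difference was -0.67, but the control group was then a single array. Its control arrays, at 8.70 and 9.38, were further apart than any other pair of replicates in the set.

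High dose against low dose gave 0 calls among the 43 genes and 0% among all tested genes (limma). At an unadjusted p under 0.05 there were 1 member and 729 of all 11743 tested genes. The median was -0.03 for the members. It turned to 0.02 with each array centred on its median over the 18193 genes, and to 0.03 after quantile normalization. Over all tested genes it was -0.07. Without low dose replicate 1 it was -0.12, without low dose replicate 2 it was 0.08 and without high dose replicate 1 it was 0.02. High dose replicate 1 and low dose replicate 2, both left pools of the first date, differed by a median of -0.16, with 40 of the 46 genes lower at the high dose. High dose replicate 2 and low dose replicate 1, both right pools, differed by 0.11, with 38 higher.

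Rpl27a was again the gene furthest from 0, with 8.57 and 8.84 at the low dose and 9.11 and 9.29 at the high dose, a difference of 0.49 (SE 0.15, limma adjusted p = 0.763). The groups did not overlap, which held for no other member in this direction and for 3.98% of all tested genes. It passed the threshold with a trend and robust variance prior (limma adjusted p = 0.0345) and with the replicate number as a block (0.00522). In those fits 25 and 45 of all 11743 tested genes passed. No member passed with date or side as a block, RIN as a covariate, centring, quantile normalization, no filter or first-date arrays only. Without high dose replicate 1 the difference was 0.58. The low dose arrays, both of the first date, had RIN 9.1 and 8.9, against 8.5 and 8.2 at the high dose. Dose and RIN therefore cannot be told apart here. In the other direction Rplp0 (-0.20), Rps27l (-0.14), Rpl39 (-0.11) and Rpl12 (-0.11) did not overlap, where 37.3% of all tested genes did not. The large minus small median difference was -0.03 here, with -0.04 for the large and -0.01 for the small subunit.

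Members past the threshold were found between the 2 hybridization dates. The comparison used the control and the high dose groups, which each have 1 array on either date, with dose group as a term. Rpl27a was higher on the later date and Rpl37 lower. They were the 2 of 43 genes past the threshold (4.65%), where 6.97% of all tested genes passed, 1.23% higher and 5.73% lower (limma). The share is near that of all genes. At an unadjusted p under 0.05 (limma) there were 10 of the 43 members and 2293 of all 11743 tested genes. Later date and lower RIN cannot be told apart: the later arrays had RIN 7.9 and 8.2 and the first-date arrays 8.5 to 9.1.

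Rpl27a had 8.70 on control replicate 1, 8.57 and 8.84 on low dose replicates 1 and 2 and 9.11 on high dose replicate 1, against 9.38 and 9.29 on the later control and high dose arrays. Both later arrays lay above all 4 first-date arrays. All genes shared 1 SE in this fit, while the SD of Rpl27a over the 6 arrays (0.326) was the largest of the set. Its log2 difference was 0.43 (SE 0.09, limma adjusted p = 0.000320), or 1.34-fold. It was 0.67 between the control arrays and 0.18 between the high dose arrays, and with 1 or the other control array left out the gene was not called (adjusted p = 0.924). In order of falling RIN (9.1, 8.9, 8.7, 8.5, 8.2 and 7.9) the levels of Rpl27a were 8.57, 8.84, 8.70, 9.11, 9.29 and 9.38. With RIN as a covariate the date term turned to -0.16 (SE 0.23, adjusted p = 1.00), and calls over all tested genes fell from 818 to 22. Another probe set of Rpl27a had a later minus first difference of 0.215, but its mean level, 6.90, lay below the lowest array median of 7.79. The chosen probe set had a mean of 8.98, where the median member had 13.14.

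Rpl37, a zinc-binding protein of the large subunit, had 10.68 on control replicate 1, 10.70 and 10.59 on the low dose arrays and 10.83 on high dose replicate 1, against 10.41 and 10.30 on the later control and high dose arrays. The later arrays lay below all others. The log2 difference was -0.40 (SE 0.09, shared by all genes, limma adjusted p = 0.00106). Without high dose replicate 1 or without high dose replicate 2 it was -0.27 (0.221), and after quantile normalization -0.31 (0.0536). Its 1 single-symbol probe set ends in _x_at, a name given to probe sets that can also bind other transcripts.

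**Figure D4:**
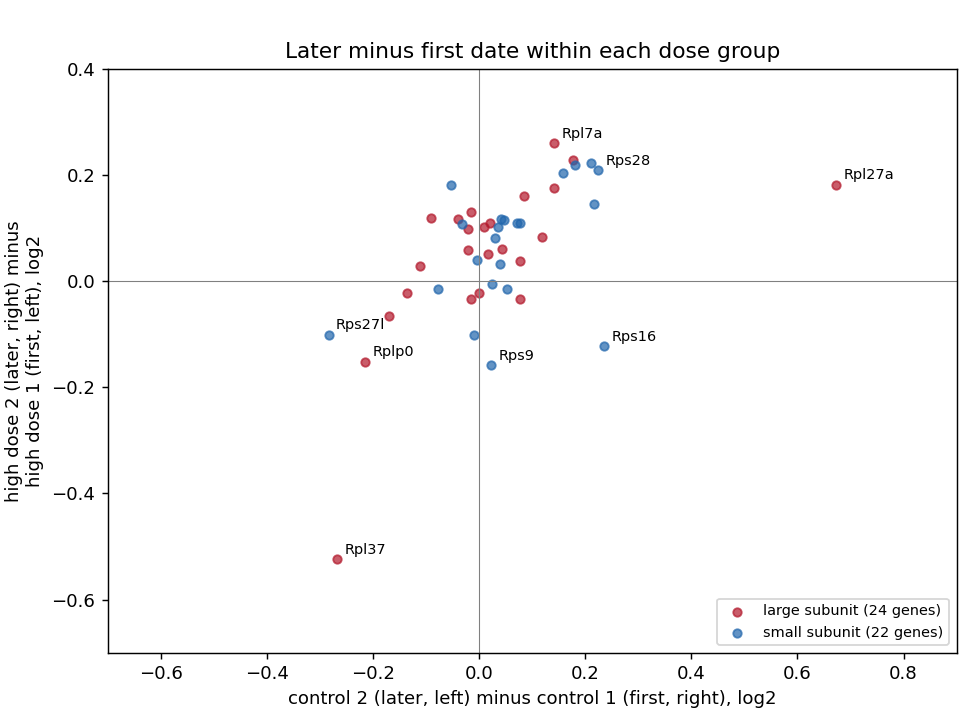
Later minus first hybridization date for each of the 46 genes (log2 units), in the control group on the x axis and in the high dose group on the y axis, red for large and blue for small subunit genes. Of the 46 points 23 lie above and to the right of 0 and 9 below and to the left, with Rpl27a far to the right at 0.67, and Rpl37 at the bottom with -0.52 in the high dose group.

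On the deposited scale the members' median and that of all genes had opposite signs across the dates. The median difference of the 43 tested members was 0.05, with 33 higher and 10 lower on the later date. With 1 or the other control array left out it was 0.10, and with 1 or the other high dose array left out 0.03. The median was -0.06 over all tested genes and -0.009 over the other genes above a level of 12. Of the 46 genes 23 were higher on the later date in both dose groups and 9 lower in both, while of all tested genes 15.8% were higher in both and 45.7% lower in both. The direction of the members' median was kept after centring (0.11) and after quantile normalization (0.02), and it turned to -0.05 with RIN as a covariate. With the arrays centred, 10 members passed, 9 higher and 1 lower, against 2 on the deposited scale. Calls over all tested genes rose as well, from 818 on the deposited scale to 1461 with the arrays centred, 580 higher and 881 lower.

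The genes near the upper end were Rps28 (0.22), Rps14 (0.22), Rpl38 (0.20), Rpl7a (0.20), Rpsa (0.20), Rps29 (0.18), Rps25 (0.18), Rpl37a (0.16) and Rpl13a (0.12), with a standard error of 0.09 each and adjusted p of 0.144 or above for the first 7 (limma). Rps28 had 14.03 and 14.04 on the first-date control and high dose arrays, 13.97 and 14.22 on the low dose arrays and 14.26 and 14.25 on the later arrays. Rps25, which some viral and cellular messages need for internal initiation, had 9.20, 9.14, 9.19 and 9.34 against 9.36 and 9.34. Rpl27a, Rps25 and Rps28 were the 3 members above all first-date arrays on both later arrays, where 5.19% of all tested genes were. Rps14, Rps28 and Rps29 have several single-symbol probe sets, and those of each ran the same way, from 0.20 to 0.22, from 0.16 to 0.22 and from 0.18 to 0.29. The 3 of Rpl37a ran from 0.08 to 0.16 and the 2 of Rpsa from 0.05 to 0.20, but the 4 of Rpl13a ran from -0.14 to 0.12.

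At the lower end Rps27l (-0.19), Rplp0 (-0.18), Rpl12 (-0.12), Rpl7 (-0.08) and Rps9 (-0.07) followed Rpl37, with adjusted p of 0.218 or above. Rpl12, Rpl37, Rplp0, Rps27l and Rps6 lay below all first-date arrays on both later arrays, where 30.1% of all tested genes did. Rplp0 had 12.01, 12.00, 12.16 and 11.96 on first-date arrays, against 11.80 and 11.81 later. Rps27l had 10.62, 10.62, 10.68 and 10.56 against 10.34 and 10.46, and its 3 probe sets gave -0.21 to -0.09. Rpl11, which binds Mdm2 when ribosome assembly fails, had -0.04, with 13.30 and 13.19 in the controls and 13.27 and 13.30 at the high dose. Rplp2, another stalk protein, had 13.82 and 13.80 in the controls and 13.78 and 13.88 at the high dose.

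Signs of RNA quality moved with the date. For Actb the level at the end of the message that lies next to the tail, minus that at the other end, was 1.4997 and 1.3768 on the later arrays and 1.0526 to 1.1865 on the first-date arrays. For Gapdh it was 0.35 and 0.34 against 0.09 to 0.22. Markers of some cell types were also lower on the later arrays. The 4 oligodendrocyte markers measured, of 5 listed, had median deviations of -0.23 and -0.31 on the later arrays and 0.04 to 0.26 on the first, and their summed log2 level was 44.97 to 45.35 against 46.18 to 47.10. The 5 microglia markers had -0.19 to -0.08 against -0.03 to 0.12, with sums of 50.09 to 50.27 against 50.50 to 51.11. The 4 granule and pyramidal cell markers had -0.17 to -0.02 against -0.003 to 0.16, with sums of 36.87 to 37.18 against 37.26 to 37.93. The 1 tested red blood cell marker had -0.17 to -0.06 against -0.02 to 0.16. Neuron (-0.008 to -0.001), astrocyte (-0.04 to 0.04) and endothelial (0.02 to 0.02) medians on the later arrays lay within their first-date range. Choroid plexus (-0.28 to 0.26) and meninges (-0.24 to 0.11) overlapped theirs. Over all tested genes the medians on the later arrays were -0.06 and -0.03. The part of RNA quality and of these markers in the result was not tested.

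Left and right pools gave 0 calls among the members and 0% among all tested genes (limma). An unadjusted p under 0.05 was found for 1 member, Rpl27a (0.25, SE 0.11, adjusted p = 1.00), and for 40 of all 11743 genes. The median of the tested members was 0.06, with 41 higher and 2 lower on the left, against -0.006 over all tested genes and 0.02 over the other genes above a level of 12. Rpl12 (-0.002) and Rps27l (-0.04) were the 2 below 0. This count rests on the low dose pools, and with 1 or the other low dose array left out the median was -0.02. With 1 or the other high dose array left out it was 0.12. Low dose replicate 2 minus replicate 1, the 1 pair that shares dose and date, had a median of 0.21 over the 46 genes, and all but Rpl37, Rpl39l, Rpl3l and Rps6 were higher on the left. The left pool was also higher for 83.8% of all tested genes and for 99.1% of the other genes above a level of 12, with medians of 0.09 and 0.18. In the controls the left pool, on the later date, had a median of 0.03 over its right pool. In the high dose group the left pool, on the first date, had -0.09. The other members furthest from 0 were Rps9 (0.13), Rps15 (0.09), Rps29 (0.09), Rps28 (0.09), Rpsa (0.09), Rps20 (0.08), Rpl22 (0.08) and Rpl14 (0.08).

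Markers of other cells were also high on low dose replicate 2. All 5 neuron markers, 4 of 5 astrocyte markers and 3 of 4 oligodendrocyte markers had their highest level there, with median deviations of 0.13, 0.12 and 0.26. The oligodendrocyte markers also had 0.19 on low dose replicate 1. The 5 microglia markers had 0.12 on low dose replicate 2. The 6 choroid plexus markers had 0.19 there, with 2 of them at their highest, and 0.26 on high dose replicate 2. The 4 granule and pyramidal cell markers had 0.04, with 0.16 on control replicate 1. The part of these markers in the members' values was not tested.

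**Figure D5:**
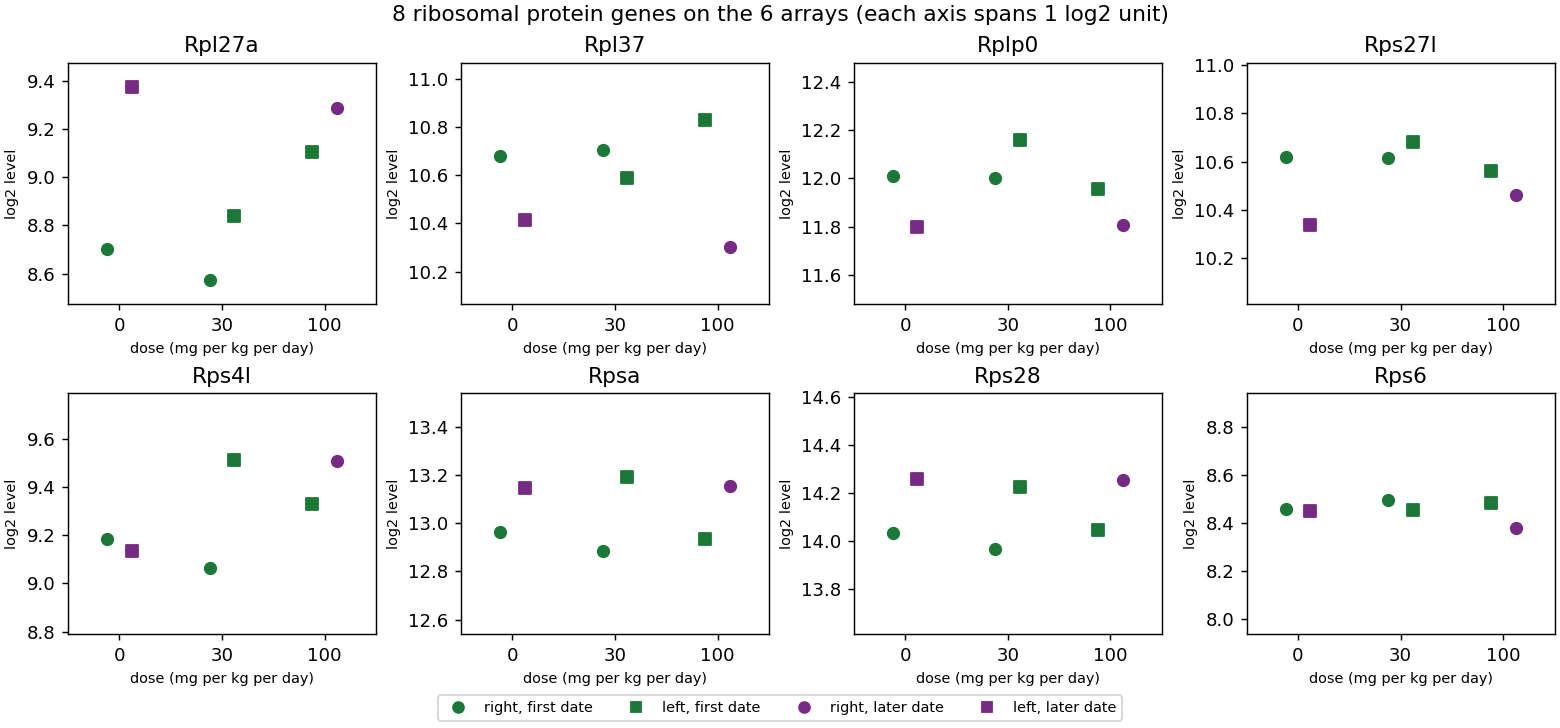
Log2 level of 8 ribosomal protein genes on the 6 arrays by daily dose; circles are right and squares left pools, green the first and purple the later hybridization date, and every axis spans 1 log2 unit. Rpl27a and Rpl37 separate by date, Rps4l has high values on low dose replicate 2 and high dose replicate 2, and Rps6 stays within 8.38 to 8.50.

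The probe sets of a gene did not always run the same way. Of the 23 members with several probe sets, 15 had every probe set higher on low dose replicate 2 than on replicate 1, and 7 had probe sets of both signs. Across the dates 12 of the 23 had probe sets of both signs. Over all 100 probe sets 87 were higher on low dose replicate 2. Ribosomal protein genes have many near-identical pseudogene copies, and of the 46 chosen probe sets 13 end in _x_at and 15 in _a_at, the latter a name for probe sets that match several transcripts of a gene. Levels of these genes can therefore hold signal of their copies.

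Other genes of translation gave no calls with dose. Of 18 tested translation factors and other genes whose messages often carry a TOP motif, of 25 ribosome biogenesis genes, of 15 genes of the mTOR pathway and its targets, and of 76 mitochondrial ribosomal protein genes, 0 passed the threshold in any of the 3 dose comparisons (limma). At an unadjusted p under 0.05 there was 1 mitochondrial gene at the high dose, and between high and low dose 1 mitochondrial and 1 mTOR pathway gene. At the high dose the medians were 0.002, -0.03, -0.05 and 0.03 in that order, and -0.03 over all tested genes. The genes furthest from 0 there were Eef2 (-0.11), an elongation factor, Nob1 (-0.14), which trims the small subunit RNA, Eif4ebp2 (-0.16), a repressor of initiation that mTOR inactivates, and Mrps6 (-0.23). At the low dose the medians were 0.04, 0.03, 0.01 and 0.06, with Eif3f (0.13), Nop58 (-0.28), Tsc2 (0.24) and Mrpl4 (0.23) furthest from 0. Between high and low dose they were Eif4a1 (-0.18), Nop58 (0.24), Tsc2 (-0.29) and Mrps6 (-0.26).

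Some of them changed with the date, where 6.97% of all tested genes passed. Of the 18 genes 1 fell, Eif4a1 (-0.30, adjusted p = 0.0238), a helicase of initiation. Of the 25 biogenesis genes 1 rose, Nop58 (0.47, 5.4e-05), a core protein of the snoRNA particles that modify ribosomal RNA, and 2 fell, Eif6 (-0.30, 0.0202), which keeps the subunits apart, and Rrn3 (-0.30, 0.0228), which brings RNA polymerase I to its promoter. Of the 15 upstream genes 2 fell, Tsc2 (-0.35, 0.00474), an inhibitor of mTOR, and Akt1 (-0.30, 0.0260). Of the 76 mitochondrial ribosomal protein genes 0 rose and 4 fell, with values from -0.31 to -0.27, namely Mrpl18, Mrpl4, Mrpl54 and Mrpl36 (limma, Benjamini-Hochberg over all genes). The medians of the 4 lists were -0.01, -0.01, -0.06 and -0.03, below the 0.05 of the cytosolic ribosomal protein genes. Left against right gave 0 calls in all 4 lists, with medians of 0.03, 0.007, -0.03 and 0.008.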

How the data were processed

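The submitters deposited log2 values for 45101 probe sets per array. RMA in R 3.0.1 (background subtraction, normalization, summary of probes) is named in the submitters' processing notes, without further settings. That the deposited values are log2 was inferred from their range, 6.10 to 15.31. Medians of the arrays were 7.79 to 7.80 and 95th percentiles 11.46 to 11.65, so the arrays differ in spread, which touches bright genes such as these. Each target was amplified from 100 ng of RNA, per the labels' protocols.

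Gene symbols came from the platform annotation, and 34741 of 34945 probe sets with 1 symbol matched a RefSeq table by Entrez identifier. The 64 control probe sets served only for the RNA quality values. Comparisons were fitted with limma 3.58.1 in R 4.3.3 (lmFit, eBayes, two-sided, Benjamini-Hochberg over 11743 genes, threshold 0.05). All 6 arrays entered, with a term for each dose group, and date or side was added for its own comparison. In those fits limma's prior degrees of freedom were infinite, so all genes shared 1 standard error. The number of arrays limits the precision. The members and lists were chosen with earlier results of these data known. For each comparison the genes named by rule are all members past the threshold and, per subunit, the 5 highest and 5 lowest. The rule adds the 5 most and 5 least variable members, a fixed panel (Rplp0, Rplp2, Rpsa, Rps6, Rpl11, Rps4x and tissue-specific paralogues) and up to 3 genes per pathway list. Control and high dose arrays of equal number share a date per the labels, and their deviations from the group means had a correlation of 0.540, against 0.0765 for control and low dose and 0.133 for low and high dose. On simulated arrays with 200 changed genes of 11743, 88.9% to 98.5% of changes of 0.5 log2 were recovered over the 5 comparisons. False calls averaged 8.9 to 13.8 per run. The simulated noise was independent between genes and held no shift of a whole array, unlike these arrays, so the shares may be too high for them. Rpl27a, at 0.49 between high and low dose, was not called. Smaller changes, such as those of most members, were not simulated. Alternatives were other scalings, filters, probe set rules, variance priors and added terms, and leaving out each array. Centring and quantile normalization were applied to the 18193 genes, each with its brightest probe set, and not to all probe sets.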

Additional observations from a re-analysis of the deposited data

Results flagged for a closer look

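Some medians ran one way in one group and the other way in another; these differences were not tested, since each rests on single arrays. High dose minus control over the 46 genes had a median of -0.002 on first-date arrays and 0.0326 on later ones, and for the tested large subunit genes it was -0.0167 and 0.038. Left minus right over the 46 genes was 0.0274 in the controls, 0.2074 at the low dose and -0.0908 at the high dose. For the large subunit the same values were 0.0122, 0.217 and -0.0719, and for the small subunit 0.04, 0.205 and -0.1075.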

How the results depend on the processing

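Of 257 recomputed counts and medians 221 kept their place and 36 did not. The limit was 1.5 times for a count and the spread between arrays for a median. For the members' median that spread, 0.088 to 0.103, exceeded the median itself in every main fit. A change of sign could thus count as kept, as for left against right without low dose replicate 1 (0.057 to -0.023). Side as a block, or leaving out an array of the dose group not compared, cannot move a median between doses. The share kept is therefore no measure of robustness. Leaving out 1 array gave 0 to 1 members called for high dose against control, for low dose against control and for high against low dose, and 1 to 2 between dates. The members' median ranged from -0.055 to 0.15 for low dose against control and from -0.12 to 0.078 for high against low dose. The large minus small median ranged from -0.043 to -0.0018 for high dose against control, from -0.0078 to 0.013 for low dose against control and from -0.036 to -0.019 between dates. For high against low dose 1 member was called with trend and robust settings, and 1 with the replicate number as a block. Over all tested genes 25 and 45 were called. With the replicate block Rpl27a passed (limma adjusted p = 0.00522), and no other named gene crossed the threshold. Between dates 10 members were called after centring, which also raised the calls over all tested genes from 818 to 1461. With RIN as a covariate 0 members were called, and calls over all tested genes fell from 818 to 22. The members' median was then -0.050 and the date term of Rpl27a was -0.16 (SE 0.23). The large minus small median for high dose against control was -0.039 on the first date's arrays and 0.023 without _x_at probe sets. For low dose against control it was -0.045 with RIN and -0.0078 on the first date's arrays. For high against low dose it was -0.0067 with the date as a block and 0.020 with RIN. Between dates it was -0.0060 after quantile normalization, -0.031 with RIN, -0.025 without _x_at probe sets and -0.0089 for members with a mean above 12, an alternative chosen after seeing the data. For left against right it was 0.011 with RIN. The cause of these shifts was not tested.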
